A study of Mus musculus with 20 samples.

Results

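The 10 genes described here encode nonfibrillar collagen chains and were followed through infarcted and reperfused mouse heart: Col6a1, Col6a2 and Col6a3 (collagen VI), Col8a1 and Col8a2 (collagen VIII), Col12a1, Col14a1 and Col16a1 (collagens XII, XIV and XVI), and Col15a1 and Col18a1 (collagens XV and XVIII). They were taken as a named list, with each symbol matched to its Ensembl gene ID, and the list was drawn up with earlier results of these data known. All 10 were found among the 63318 genes of the count table, and all 10 passed the filter on low counts that left 19741 genes for testing. The transcript table held 54 annotated transcripts of them among 163740. Poly(A) RNA had been extracted with Trizol from mouse hearts of 4 groups, each with 4 short-read libraries. The group called MI had a myocardial infarction and was taken 72 h after surgery, and MISham is its sham-operated control. Hearts of the group called IR underwent a step of 40 min that the labels call "LCA" without explaining the term, followed by 72 h of reperfusion (return of blood flow), and IRSham is the matching sham control. The MI and MISham tissue held the infarct core and its periphery, whereas IR and IRSham tissue was core only, so the injury model and the sampled region cannot be told apart. The labels give neither strain, nor age, nor the time at which MISham was taken, and do not state that each library came from its own animal, so the p-values cover only library-to-library spread, which may be technical.

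Collagens are secreted proteins of 3 chains wound into a triple helix, and the chains studied here do not form the thick banded fibrils of scar. Collagen VI is built from an α1, an α2 and an α3 chain and assembles into beaded microfilaments next to cells. Collagen VIII forms hexagonal networks, best known from the corneal Descemet membrane and from vessel walls. Collagens XII, XIV and XVI belong to the FACIT class (fibril-associated collagens with interrupted triple helices), which sit on the surface of fibrils. Collagens XV and XVIII, the multiplexins, carry glycosaminoglycan chains, lie at basement membranes, and can be cut to release the C-terminal fragments restin and endostatin. In the heart these genes are known chiefly from fibroblasts and vessel cells.

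Library totals ran from 24.3 to 27.6 M counts in MISham, 57.2 to 63.1 M in MI, 25.5 to 29.8 M in IRSham and 26.2 to 31.8 M in IR. The MI libraries were thus deeper than the others, and the scarcest chain, Col8a2, had only 17 to 27 counts in each MISham library. The tissue carried heart markers: the summed level of 10 cardiomyocyte genes was 82264 to 91515 CPM in MISham and 18764 to 32294 CPM in MI, 85317 to 89362 CPM in IRSham and 20155 to 38581 CPM in IR, and 10 of 10 were lower after MI and after IR. CPM of a single gene are counts scaled to a common library total after TMM scaling, a correction for library composition. Marker sums, here and below, were scaled to the plain library total without TMM. The TMM factors ran from 0.877 to 0.923 in sham libraries and from 1.08 to 1.13 in injured libraries. On the plain scale the sums of injured libraries thus stand higher against the shams than TMM would put them. Of 10 activated fibroblast markers (Postn, Cthrc1 and others) 10 rose after MI and 9 after IR. Their sum was 150 to 520 CPM in MISham, 3686 to 4532 in MI, 538 to 832 in IRSham and 3753 to 5824 in IR, and none of the 10 was at 0 in all libraries of a group. Of 10 resident fibroblast markers 3 rose and 6 fell after MI, and 4 rose and 3 fell after IR, while 10 of 10 macrophage markers rose in both. Of 8 endothelial markers 3 rose and 3 fell after MI, and 1 rose and 5 fell after IR. Over all tested genes 34.8% were called higher and 30.2% lower after MI, and 29.5% and 28.2% after IR. The part of these cell type shifts in the collagen values was not tested, and in bulk tissue more cells of a type and more RNA per cell cannot be told apart.

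All 10 collagen genes rose after MI and all 10 rose after IR. In both comparisons the lowest injured library lay above the highest sham library for all 10. By edgeR's quasi-likelihood test with Benjamini-Hochberg adjustment over 19741 genes, adjusted p ran from 1.96e-09 to 0.000152 in MI and from 2.60e-08 to 0.000299 in IR. A call in the higher direction was common in these tissues, at 34.8% of all tested genes after MI and 29.5% after IR, and groups that did not overlap in that direction were found for 34.1% and 26.1% of genes. The median log2 fold change of the 10 genes was 2.08 in MI, where the median of all tested genes was 0.08, and 1.86 in IR, where that of all genes was 0.03. The size of the rise differed widely between chains, from 1.93-fold for Col6a2 to 10.8-fold for Col12a1 in MI, and from 2.52-fold for Col6a1 to 15.7-fold for Col8a2 in IR. With no composition correction (library size only), the median change over all tested genes moved to 0.39 in MI and 0.32 in IR and the calls over all genes to 9318 higher and 4270 lower in MI, against 6861 and 5960 with TMM. In IR they moved to 8411 and 3754, against 5814 and 5567. The 10 collagen genes were called higher in both comparisons on that scale too.

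**Figure D1:**
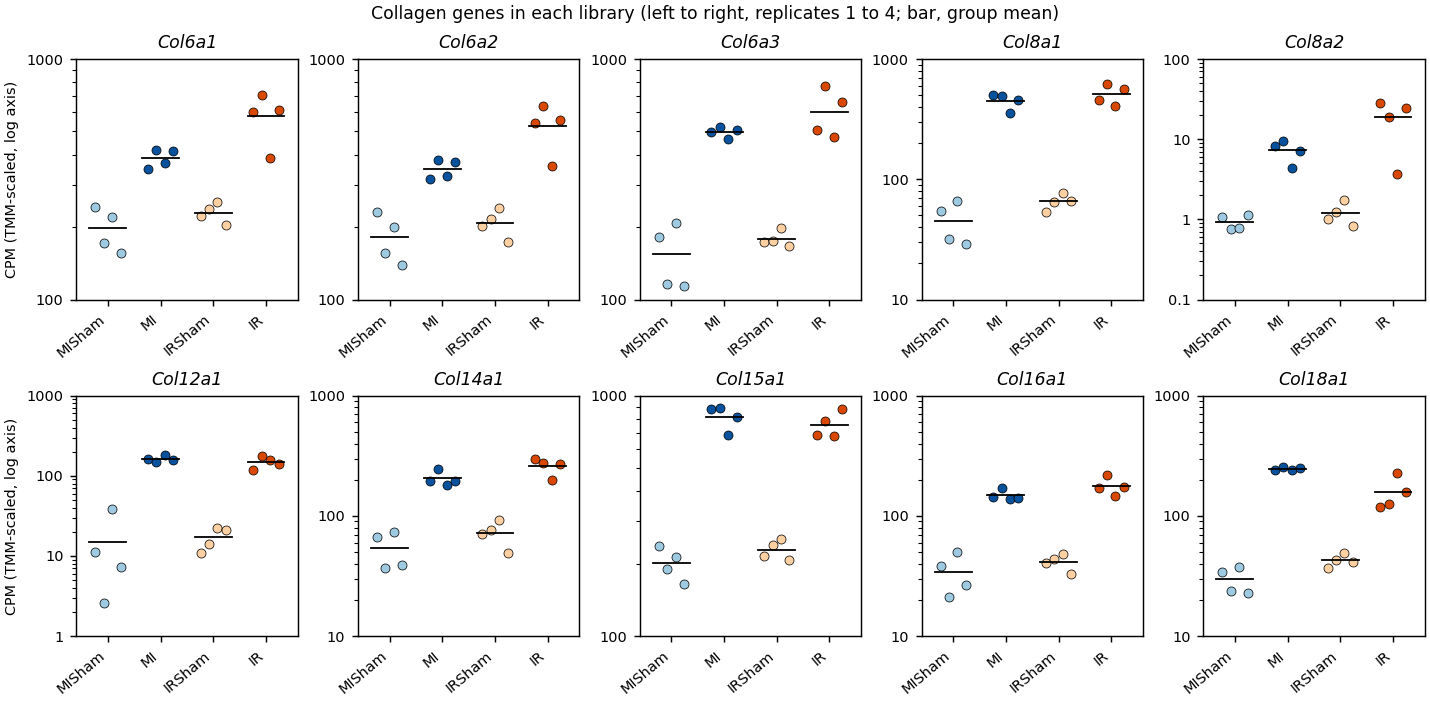
CPM of each gene (log axis) in the 16 libraries, by group, with the 4 replicates of a group from left to right and the group mean as a bar. For each of the 10 genes every MI point lies above every MISham point and every IR point above every IRSham point, and the lowest IR point of Col8a2, replicate 3, stands at 3.71 CPM.

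Collagen VI carried the smallest rises in MI, and in IR Col6a1 and Col6a2 rose least. Col6a1, the α1 chain, had 243, 172, 220 and 156 CPM in the MISham libraries, in the order of replicates 1 to 4, and 349, 419, 368 and 413 CPM in MI. It stood at 223, 238, 253 and 204 CPM in IRSham and at 602, 707, 389 and 614 CPM in IR. No injured library overlapped its shams, and IR replicate 3 lay well below the other IR libraries. The log2 fold change was 0.97 ± 0.16 (SE) in MI, with adjusted p = 5.18e-05, and 1.33 ± 0.16 in IR, with adjusted p = 2.81e-06.

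Col6a2, the α2 chain, followed Col6a1 almost exactly. It had 231, 156, 200 and 139 CPM in MISham, 317, 381, 327 and 375 in MI, 203, 216, 241 and 173 in IRSham and 544, 641, 358 and 559 in IR. The log2 fold changes were 0.95 ± 0.17 in MI (adjusted p = 0.000152) and 1.33 ± 0.18 in IR (adjusted p = 7.05e-06). When each gene's log2 CPM was centred on its own mean over the 16 libraries, the root mean square difference between Col6a1 and Col6a2 was 0.036. That was the smallest of the 45 pairs of the 10 genes, whose median was 0.668. The next closest pairs were Col14a1 with Col16a1 (0.178) and Col6a3 with Col15a1 (0.225).

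Col6a1 and Col6a2 lie next to each other on chromosome 10 with no protein-coding gene between them in the RefSeq annotation, and Col18a1 follows beyond Pcbp3 and Slc19a1. Their promoters are shown because these neighbours had the closest profiles. The sequences are the 250 bases before a start site, 5′ to 3′ on the gene's strand, from RefSeq on GRCm38.p6, an older build than the GRCm39 of the count files. For Col6a2 the window before the more downstream of its RefSeq starts is given, and GENCODE M21 places the starts of Col6a2-201, Col6a2-202 and Col6a2-203 within 250 bases of that start.
Col6a1, chr10:76726045-76726294, minus strand: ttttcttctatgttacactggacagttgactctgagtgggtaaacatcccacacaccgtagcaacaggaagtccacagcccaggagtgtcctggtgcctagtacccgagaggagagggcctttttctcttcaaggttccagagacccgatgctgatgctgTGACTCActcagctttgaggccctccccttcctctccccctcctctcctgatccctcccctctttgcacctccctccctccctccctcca
Col6a2, chr10:76623405-76623654, minus strand: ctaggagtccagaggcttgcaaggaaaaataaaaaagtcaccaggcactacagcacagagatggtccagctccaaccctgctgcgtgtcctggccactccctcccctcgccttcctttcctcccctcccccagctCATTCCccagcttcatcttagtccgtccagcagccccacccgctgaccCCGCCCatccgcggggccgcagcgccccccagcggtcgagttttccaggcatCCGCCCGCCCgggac
Capitals mark matches, on either strand, to 7 short motifs: the TATA box TATAAA, the CCAAT box CCAAT, the GC box GGGCGG, the AP-1 site TGANTCA, the TEAD site CATTCC, the SMAD element CAGACA and the hypoxia response core ACGTG. Where matches overlap, 1 run of capitals covers them. The Col6a1 window holds an AP-1 match 90 bases before the start and none of the other motifs, and 6.75% of 32817 RefSeq windows of this length hold an AP-1 match. The Col6a2 window holds 3 GC boxes, at 67, 15 and 11 bases before the start, the last 2 overlapping, and a TEAD match at 115 bases. A GC box is in 32.7% of all windows and a TEAD match in 12.6%. So the pair with the closest profiles shared none of these 7 motifs in the windows shown. All these matches lie after the GENCODE starts of Col6a1-201 and Col6a2-201, so they are not in the sequence before those transcripts as annotated. The window before the other RefSeq start of Col6a2, where Col6a2-201 begins, holds a GC box at 175 bases and none of the other motifs. A match is a run of letters and not a measured binding site.

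Col6a3, the long α3 chain, rose more than its partners. It had 181, 116, 208 and 113 CPM in MISham and 497, 521, 466 and 506 CPM in MI, a log2 fold change of 1.69 ± 0.19 (adjusted p = 7.74e-07). In IRSham it had 174, 175, 198 and 167 CPM and in IR 506, 773, 473 and 663 CPM, a change of 1.76 ± 0.19 (adjusted p = 8.95e-07). Chains of different length were set against each other in TPM, a transcript abundance scaled for length and library total, summed over the annotated transcripts of a gene. Of the summed TPM of the 3 chains, Col6a3 held 16.2, 18.1, 23.1 and 20.3% in MISham and 33.7, 28.7, 29.9 and 30.5% in MI. It held 16.5, 17.7, 17.0 and 24.8% in IRSham and 29.2, 26.1, 26.4 and 24.3% in IR. MI and MISham did not overlap, whereas IRSham replicate 4 lay above IR replicate 4. These shares rest in part on minor transcripts of Col6a3 whose TPM varied widely between libraries. Col6a3-206 made up 31.2 of the 89.0 Col6a3 TPM in IR replicate 1, and was 0 to 8.16 TPM in the other IR libraries. The mean share was 30.7 ± 2.16% (SD, n = 4) in MI against 19.4 ± 2.94% in MISham, with p = 0.0286 by a two-sided exact permutation test, the smallest p that 4 against 4 libraries allow. It was 26.5 ± 2.05% in IR against 19.01 ± 3.89% in IRSham (exact p = 0.0571), and adjusted over the 4 chain-share tests both gave p = 0.114. With 4 tests, an adjusted p under 0.05 could not be reached by 1 test alone at this group size.

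The remaining α chains of collagen VI were scarce, and the one with the highest level among them fell. Col6a6, a chain that can stand in for α3, fell from 17.1, 21.3, 21.1 and 17.7 CPM in MISham to 1.81, 2.26, 3.13 and 1.83 CPM in MI, a log2 fold change of -3.10 ± 0.27 (adjusted p = 5.29e-08). It also fell in IR, from 15.8, 18.4, 18.6 and 16.2 CPM to 12.4, 6.11, 4.80 and 4.90 CPM, a change of -1.30 ± 0.25 (adjusted p = 0.000336). Col6a6 thus moved against Col6a3 in all injured libraries, though the difference between its responses had adjusted p = 0.0584. Per length it was a minor chain: 1.39 ± 0.206 TPM in MISham beside 14.1 ± 4.93 TPM of Col6a3, and 0.275 ± 0.0505 TPM in MI beside 81.0 ± 6.32 TPM. Col6a4 was listed at 0 in 3 of 4 MISham libraries and at 0.332 ± 0.122 CPM in MI (SD, n = 4), and was called higher there (adjusted p = 0.0109) but not in IR (adjusted p = 0.121). Its highest value in any library was 0.948 CPM. Col6a4 passed the filter on low counts mainly through the injured libraries, and the MI libraries were the deepest, so the filter favoured its call in MI. Col6a5 was not called in either comparison, with adjusted p = 0.266 in MI and 0.216 in IR.

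Collagen VIII had among the largest rises. Col8a1, the α1 chain, had 54.3, 31.6, 65.8 and 28.7 CPM in MISham and 500, 492, 354 and 456 CPM in MI. It had 53.7, 65.1, 76.8 and 66.4 CPM in IRSham and 458, 620, 411 and 562 CPM in IR. The injured libraries stood apart from the shams by a wide margin: the log2 fold change was 3.32 ± 0.25 in MI, a 9.98-fold rise (adjusted p = 2.72e-08), and 2.97 ± 0.25 in IR, a 7.83-fold rise (adjusted p = 1.54e-07).

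Col8a2, the α2 chain, was the scarcest of the 10 genes. It had 1.08, 0.765, 0.787 and 1.12 CPM in MISham, from 27, 17, 20 and 24 counts, and 8.16, 9.63, 4.36 and 7.13 CPM in MI. IRSham libraries had 1.01, 1.23, 1.73 and 0.817 CPM, and IR libraries 28.3, 18.7, 3.71 and 24.8 CPM. IR replicate 3 fell far below the other IR libraries, yet above all shams. The log2 fold changes were 2.96 ± 0.51 in MI (adjusted p = 0.000121) and 3.97 ± 0.51 in IR (adjusted p = 9.16e-06), and 4.32 in IR without replicate 3. Only 0.263% of tested genes had a higher log2 fold change in IR than Col8a2. Col8a2 held 2.84 ± 1.58% of the summed collagen VIII TPM in MISham and 2.18 ± 0.629% in MI (exact permutation p = 0.571), and 3.82 ± 3.33% in IRSham and 4.76 ± 3.54% in IR (exact permutation p = 0.629; adjusted p = 0.629 for both). Neither difference in chain share exceeded the spread between libraries, so the collagen VIII transcripts measured were mostly Col8a1 in all 4 groups.

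**Figure D2:**
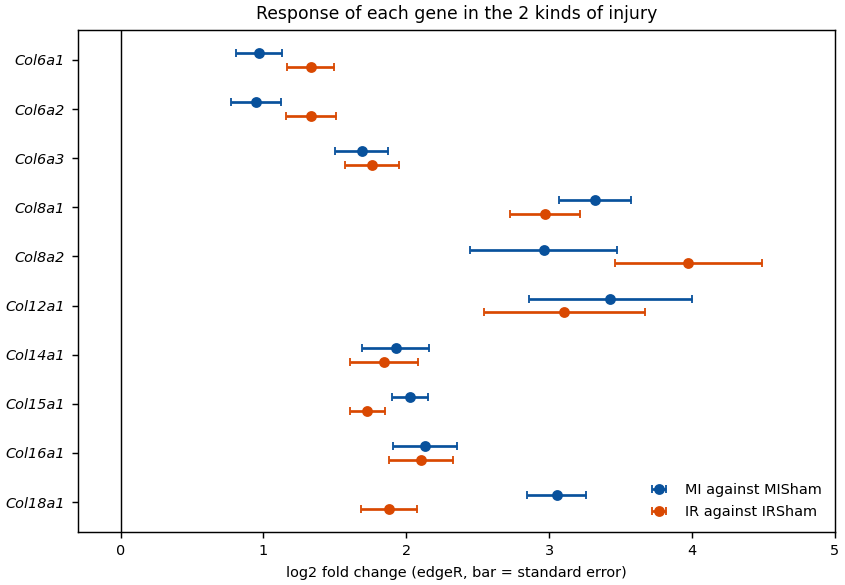
Log2 fold change of each gene, with its standard error as a bar, in MI against MISham (blue) and IR against IRSham (orange). All 20 values lie above 0, Col6a1 and Col6a2 have the smallest rises, between 0.95 and 1.33, and Col18a1 has the widest gap between the comparisons beyond its error bars, 3.05 against 1.88.

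Among the FACIT chains Col12a1 rose most. Col12a1, which encodes a collagen that bridges fibrils under load, had 11.4, 2.61, 38.9 and 7.32 CPM in MISham and 164, 150, 181 and 158 CPM in MI. The sham libraries varied far more than the MI libraries, and MISham replicate 3 lay above the other shams. The log2 fold change was 3.43 ± 0.57 (adjusted p = 0.000115). It was 4.52 without MISham replicate 3 and 5.05 without MISham replicates 1 and 3. In IRSham it had 10.9, 14.1, 22.6 and 21.1 CPM and in IR 119, 175, 159 and 139 CPM, a change of 3.11 ± 0.56 (adjusted p = 0.000299).

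Col14a1, a chain that binds decorin-coated fibrils, had 66.9, 37.1, 73.4 and 39.1 CPM in MISham, 196, 247, 182 and 196 in MI, 71.0, 76.1, 92.3 and 49.2 in IRSham and 295, 273, 199 and 270 in IR. It rose by 1.92 ± 0.24 on the log2 scale in MI (adjusted p = 4.39e-06) and by 1.84 ± 0.24 in IR (adjusted p = 9.66e-06). Col16a1, a FACIT chain found near cell surfaces and fine fibrils, had 37.9, 21.05, 50.4 and 26.5 CPM in MISham, 144, 170, 139 and 142 in MI, 40.6, 43.4, 48.5 and 32.6 in IRSham and 171, 217, 147 and 174 in IR. Its rises were 2.13 ± 0.22 (adjusted p = 7.88e-07) and 2.10 ± 0.22 (adjusted p = 1.49e-06). The rises of both genes lay between 3.59- and 4.38-fold in both injuries, and in MISham both stood higher in replicates 1 and 3 than in 2 and 4.

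Col15a1, the first multiplexin, had the highest level per length of the 10 genes in injured tissue. It had 236, 190, 213 and 165 CPM in MISham, 881, 891, 688 and 814 in MI, 215, 238, 253 and 208 in IRSham and 688, 784, 676 and 877 in IR. Its log2 fold changes of 2.02 ± 0.13 in MI (adjusted p = 1.96e-09) and 1.73 ± 0.12 in IR (adjusted p = 2.60e-08) carried the smallest standard errors and the smallest adjusted p of the 10 genes in both comparisons.

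Col18a1, the second multiplexin and the source of endostatin, had 34.1, 23.9, 37.8 and 22.7 CPM in MISham and 241, 254, 239 and 251 CPM in MI. The 4 MI libraries lay close together, at 246 ± 7.63 CPM (SD, n = 4). In IRSham it had 36.9, 42.9, 49.5 and 41.6 CPM and in IR 118, 126, 228 and 157 CPM, or 157 ± 49.995 CPM. IR replicate 3, the lowest IR library for 8 of the 10 genes, was the highest for Col18a1. The log2 fold changes were 3.05 ± 0.21 in MI (adjusted p = 1.12e-08) and 1.88 ± 0.20 in IR (adjusted p = 1.28e-06).

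Col18a1 was the collagen gene that came nearest to a different response in the 2 injuries. The log2 fold change in MI exceeded that in IR by 1.17 ± 0.27 (adjusted p = 0.0927 by edgeR's test), so it missed the threshold. Of the 10 genes 0 were called for this difference, 1 had an unadjusted p under 0.05, and 0.192% of all tested genes were called. DESeq2 called Col18a1 alone (1.12, adjusted p = 0.00661), in a fit that called 1.24% of all tested genes higher and 1.42% lower. Without IR replicate 3, edgeR called it as well, at 1.41 with adjusted p = 0.00524. That fit called 1.01% of all tested genes higher and 0.392% lower. The 8 endothelial markers went both ways: in MI Pecam1 (0.86), Cdh5 (0.78) and Emcn (0.29) rose and Kdr (-0.75), Flt1 (-0.43) and Tek (-0.30) fell. In IR 1 rose, Pecam1 (0.23), and 5 fell. Their summed level, on the plain library total, was 1709 CPM in IR replicate 3 and 1190 to 1266 CPM in the other IR libraries. It was 1740 to 1917 CPM in MI, 1256 to 1375 CPM in MISham and 1284 to 1380 CPM in IRSham. The Col18a1 CPM are TMM-scaled and these sums are not, and TMM would narrow the gap of MI and IR replicate 3 to the shams. Among the injured samples the libraries with high Col18a1 had a high endothelial sum, but other marker lists split these libraries too. Neutrophil markers summed to 206 to 459 CPM in MI, 194 CPM in IR replicate 3 and 100 to 157 CPM in the other IR libraries. Macrophage markers went the other way. Their sum was 2824 to 4226 CPM in MI, 3313 CPM in IR replicate 3 and 5180 to 5941 CPM in the other IR libraries. The part of any of these lists in the Col18a1 values was not tested. For the other 9 genes the difference ran from -1.01 ± 0.72 for Col8a2 (adjusted p = 0.533) to 0.35 ± 0.32 for Col8a1 (adjusted p = 0.646), and none was called.

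Between the sham groups, 0 of the 10 genes were called by edgeR and 0 by DESeq2, where 3.2% of all genes were called by edgeR, and 2 had an unadjusted p under 0.05. These were Col18a1 (-0.53 ± 0.20, adjusted p = 0.223) and Col8a1 (-0.54 ± 0.23, adjusted p = 0.303), both lower in MISham. All 10 log2 fold changes of MISham against IRSham were negative, from -0.54 to -0.18. The MISham libraries were split: replicates 1 and 3 both lay above replicates 2 and 4 for 9 of the 10 genes, all but Col8a2. Activated fibroblast markers summed to 349 and 520 CPM in MISham replicates 1 and 3 and to 150 and 213 CPM in replicates 2 and 4, and macrophage markers to 1276 and 972 CPM against 530 and 595 CPM. Cardiomyocyte markers summed to 82486 and 82264 CPM in MISham replicates 1 and 3 and to 91515 and 87353 CPM in 2 and 4. The IR libraries were split as well: replicates 2 and 4 both lay above replicates 1 and 3 for 6 of the 10 genes. Cardiomyocyte markers summed to 20155 and 22094 CPM in IR replicates 2 and 4 and to 38581 and 35149 CPM in replicates 1 and 3. The other 2 lists did not follow the IR split. Activated fibroblast markers summed to 5824 and 4841 CPM in IR replicates 2 and 4 and to 4966 and 3753 CPM in 1 and 3. Macrophage markers summed to 5180 and 5941 CPM against 5295 and 3313 CPM. MI replicate 3, the lowest MI library for 7 genes, had the highest cardiomyocyte sum in MI, 32294 CPM. The part of these markers in either split was not tested. How many of all tested genes show either split was not counted. On the main axis of variation over all tested genes (first principal component), MISham replicates 1 and 3 stood at -71.0 and -66.8, and 2 and 4 at -113 and -106. IR replicates 2 and 4 stood at 94.7 and 91.5, and 1 and 3 at 48.5 and 54.2. So both splits reach beyond the collagen genes.

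Without MISham replicates 1 and 3, 6 of the 10 genes were called lower in MISham than in IRSham: Col6a3, Col8a1, Col12a1, Col14a1, Col16a1 and Col18a1. In the same fit 5.55% of all tested genes were called lower. The changes ran from -1.80 for Col12a1 (adjusted p = 0.014) to -0.64 for Col6a3 (adjusted p = 0.0186). The same omission brought 3 genes past the threshold for a larger response in MI than in IR: Col8a1 (0.94, adjusted p = 0.0306), Col12a1 (1.94, adjusted p = 0.0352) and Col18a1 (1.53, adjusted p = 0.00935). In that fit 4.46% of all tested genes were called for a larger response in MI. The libraries left out are those with the higher sham values, so their omission lowers the MISham level and widens the MI response by construction, the opposite omission was not run, and leaving out any 1 MISham library called 0 of the 10 genes in either comparison.

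**Figure D3:**
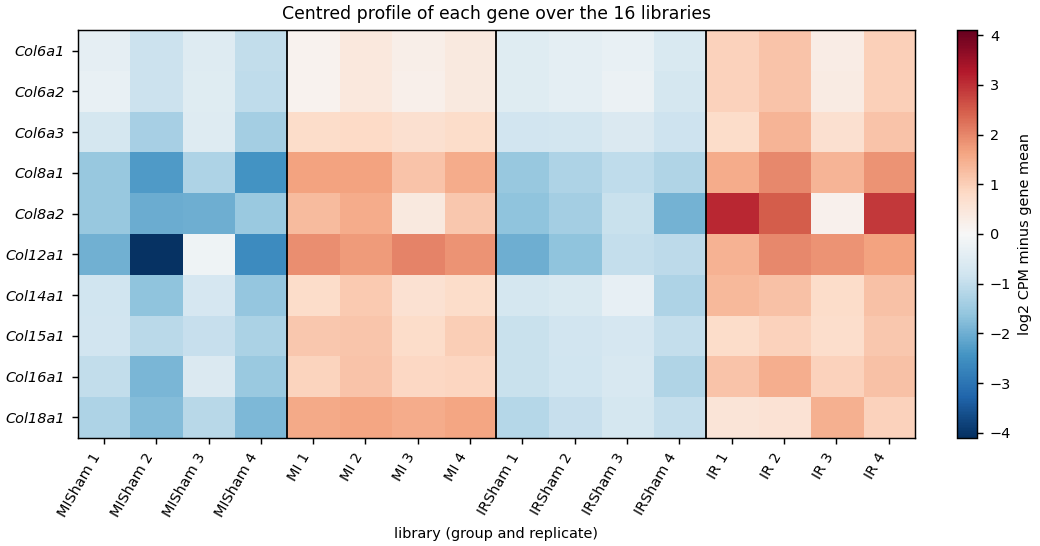
Log2 CPM of each gene minus its own mean over the 16 libraries (colour), with libraries in columns by group and replicate. All sham columns are below the gene means and all MI and IR columns above, MISham 1 and 3 are less blue than MISham 2 and 4 for all genes but Col8a2, and IR 3 is the lowest IR column for 8 genes and the highest for Col18a1.

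Levels per length reordered the chains. In MISham, Col6a1 at 31.9 ± 9.73 TPM and Col15a1 at 31.9 ± 5.85 TPM led, before Col6a2 (26.7 ± 7.79 TPM), Col6a3 (14.1 ± 4.93 TPM), Col16a1 (6.20 ± 2.63 TPM), Col8a1 (6.06 ± 2.84 TPM), Col14a1 (4.44 ± 2.13 TPM), Col18a1 (4.07 ± 1.33 TPM), Col12a1 (1.06 ± 1.04 TPM) and Col8a2 (0.151 ± 0.0460 TPM), all SD over n = 4 libraries. Among neighbours in that order, only Col6a3 with Col16a1 and Col12a1 with Col8a2 had ranges that did not overlap. In MI the order was led by Col15a1 at 206 ± 32.2 TPM, followed by Col8a1 at 101 ± 19.4 TPM, which had been sixth in sham tissue, and then by Col6a1 (100 ± 11.5 TPM), Col6a2 (83.3 ± 9.90 TPM), Col6a3 (81.0 ± 6.32 TPM) and Col18a1 (55.9 ± 3.83 TPM). The ranges of Col8a1, Col6a1, Col6a2 and Col6a3 in MI overlapped from each neighbour to the next. Col15a1 stood clear of Col8a1.

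In IRSham the order was Col6a1 (38.6 ± 3.94 TPM), Col15a1 (35.5 ± 3.10 TPM), Col6a2 (33.4 ± 5.34 TPM), Col6a3 (16.7 ± 2.43 TPM) and Col8a1 (9.23 ± 1.35 TPM), followed by Col16a1, Col14a1, Col18a1, Col12a1 and Col8a2. In IR it was Col15a1 (198 ± 29.2 TPM), Col6a1 (141 ± 41.5 TPM), Col6a2 (124 ± 35.4 TPM), Col8a1 (111 ± 33.9 TPM) and Col6a3 (94.8 ± 24.1 TPM), then Col16a1, Col14a1, Col18a1, Col12a1 and Col8a2. Neighbours from Col15a1 down to Col18a1 overlapped in their IR ranges. Col18a1 was eighth in IR, at 35.5 ± 11.2 TPM, and sixth in MI. The TPM scale is shifted against CPM: over 17710 tested genes with annotated transcripts the median difference in log2(TPM + 1) was 0.50 in MI and 0.42 in IR. The medians of the 10 genes on that scale were 2.58 and 2.36. Col8a2 and Col12a1, the genes with the lowest TPM, had smaller changes on that scale than in CPM: 1.48 and 2.04 for Col8a2, and 3.14 and 2.75 for Col12a1, in MI and IR.

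**Figure D4:**
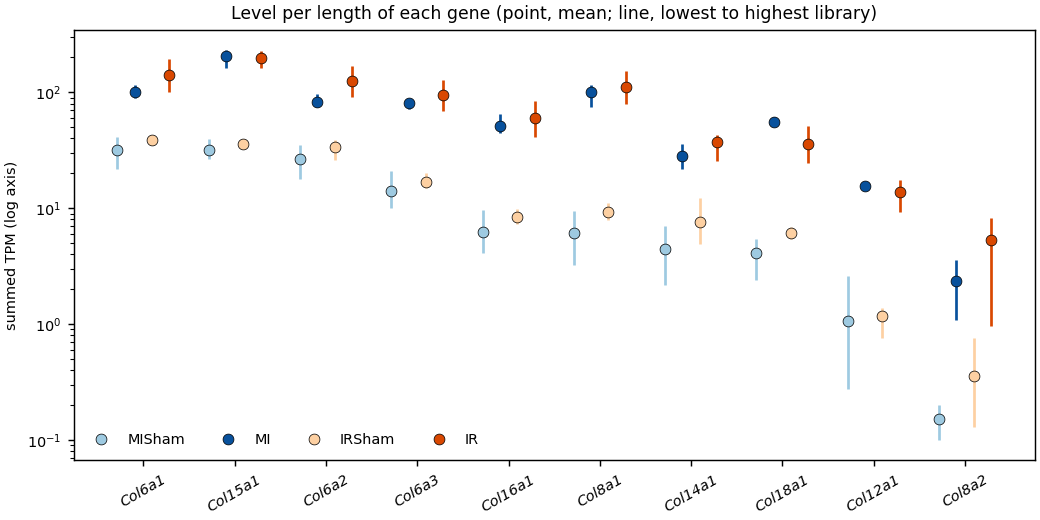
Summed TPM of each gene (log axis) in the 4 groups, genes ordered by their MISham mean, with the mean as a point and a line from the lowest to the highest library. Col15a1 is highest in MI (206 TPM) and IR (198 TPM), Col8a1 climbs from 6.06 TPM in MISham to 101 TPM in MI, and Col8a2 is lowest in all 4 groups.

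Of the 54 annotated transcripts 28 reached a mean of 1 TPM and were tested by limma on log2(TPM + 1). In MI 25 of these 28 were called higher and 0 lower, where 49% of 40489 tested transcripts were called higher, and in IR 25 were higher and 0 lower, where 42.5% were. The mean was taken over all 16 libraries, so a transcript scarce in the shams could pass through the injured libraries alone. Col12a1-204 had 0, 0, 0.554 and 0 TPM in MISham and 1.93, 2.67, 1.85 and 2.12 TPM in MI. For such transcripts the filter favoured a higher call. The same filter held for all 40489 transcripts. The 3 not called in MI were Col6a3-206 (1.68 ± 0.73, adjusted p = 0.0586), Col15a1-203 (1.46 ± 0.79, adjusted p = 0.126) and Col14a1-204 (-0.04 ± 0.71, adjusted p = 0.969). In IR they were Col6a3-206 (1.71 ± 0.73, adjusted p = 0.0614), Col14a1-203 (0.67 ± 0.61, adjusted p = 0.378) and Col14a1-204 (0.89 ± 0.71, adjusted p = 0.311). All 4 are shorter than the main transcript of their gene, and their TPM varied widely between libraries of a group. By limma, 0 of the 28 were called for the difference of the responses or between the shams, where 0.084% and 0.0198% of transcripts were.

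The share of a gene's TPM held by each transcript was tested for 22 transcripts of 7 of the genes, where a call needed both an adjusted p below 0.05 and a shift of 10 points or more. Both calls were in Col18a1 after MI. Col18a1-202 rose from 65.8, 65.3, 74.5 and 74.2% of Col18a1 TPM in MISham to 90.2, 88.9, 89.8 and 89.7% in MI, a change of 19.7 ± 4.52 points (limma, adjusted p = 0.0159). Col18a1-201 fell from 15.8, 5.79, 13.6 and 25.8% to 1.75, 2.67, 1.84 and 1.95%, a change of -13.2 ± 3.23 points (adjusted p = 0.0229). No MI library overlapped MISham in either share. Over all genes 5.91% of 25606 transcripts were called for a share change after MI, so 2 of 22 was near that rate. Leaving out MISham replicate 4 brought the change of Col18a1-201 to -9.67 points, and leaving out any 1 of the 4 MI libraries put its adjusted p between 0.053 and 0.06, whereas Col18a1-202 was called under each omission of 1 library.

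After IR 0 of the 22 shares were called, where 3.88% of all transcripts were, and 0 between the shams, where 0.0742% were. Col18a1-202 held 63.8, 70.1, 82.7 and 90.4% in IRSham and 80.4, 85.4, 86.4 and 81.5% in IR, which overlap, with a change of 6.66 ± 4.52 points (adjusted p = 0.478). The difference between the MI and IR changes was 13.0 ± 6.40 points (adjusted p = 0.649), so no difference between the injuries was shown. In TPM, Col18a1-202 went from 2.84 ± 0.981 in MISham to 50.1 ± 3.24 in MI, whereas Col18a1-201 went from 0.583 ± 0.257 to 1.16 ± 0.313. The share of Col18a1-201 thus fell while its mean TPM was higher in MI, where the TPM scale was itself shifted up. The median difference in log2(TPM + 1) over tested genes with annotated transcripts was 0.50 there. The level of Col18a1-201 was not tested because its mean over all libraries was under 1 TPM. Col6a3-201, the longest annotated transcript of Col6a3 at 10106 bases, gained 8.35 ± 2.204 points in MI (adjusted p = 0.033), short of the 10-point limit.

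These Col18a1 transcripts begin at different start sites of the gene. In GENCODE M21, Col18a1-202 begins near the upstream RefSeq start and Col18a1-201 and Col18a1-203 near the downstream start. The 250 bases before each are shown because the share calls fall on transcripts of different starts, with capitals as above.
Col18a1 upstream start, chr10:77166531-77166780, minus strand: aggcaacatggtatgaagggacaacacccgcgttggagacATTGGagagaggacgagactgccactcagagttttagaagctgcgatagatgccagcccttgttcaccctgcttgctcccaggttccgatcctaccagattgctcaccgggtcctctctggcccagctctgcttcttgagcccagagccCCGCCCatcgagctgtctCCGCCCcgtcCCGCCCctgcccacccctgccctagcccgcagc
Col18a1 downstream start, chr10:77113706-77113955, minus strand: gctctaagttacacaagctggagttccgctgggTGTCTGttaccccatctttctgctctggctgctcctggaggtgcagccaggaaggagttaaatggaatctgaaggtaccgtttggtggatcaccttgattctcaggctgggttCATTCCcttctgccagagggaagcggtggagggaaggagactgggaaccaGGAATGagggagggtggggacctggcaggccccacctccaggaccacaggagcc
The upstream window holds 3 GC boxes, at 61, 43 and 33 bases before the start, and a CCAAT box at 210 bases. The downstream window holds none of these and has 2 TEAD matches, at 104 and 54 bases, and a SMAD element at 217 bases. All of these lie after the GENCODE start of Col18a1-201. A CCAAT box is in 33.8% of all windows and a SMAD element in 17.1%. Over the 8 genes with an entry, which gave 10 windows, 6 windows held a GC box, 2 a CCAAT box, 2 a TEAD match, 2 a SMAD element and 1 an AP-1 match, and 0 held TATAAA or ACGTG, which 12.4% and 16.6% of all windows hold. RefSeq entries for Col12a1 and Col14a1 were not among those used here.

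**Figure D5:**
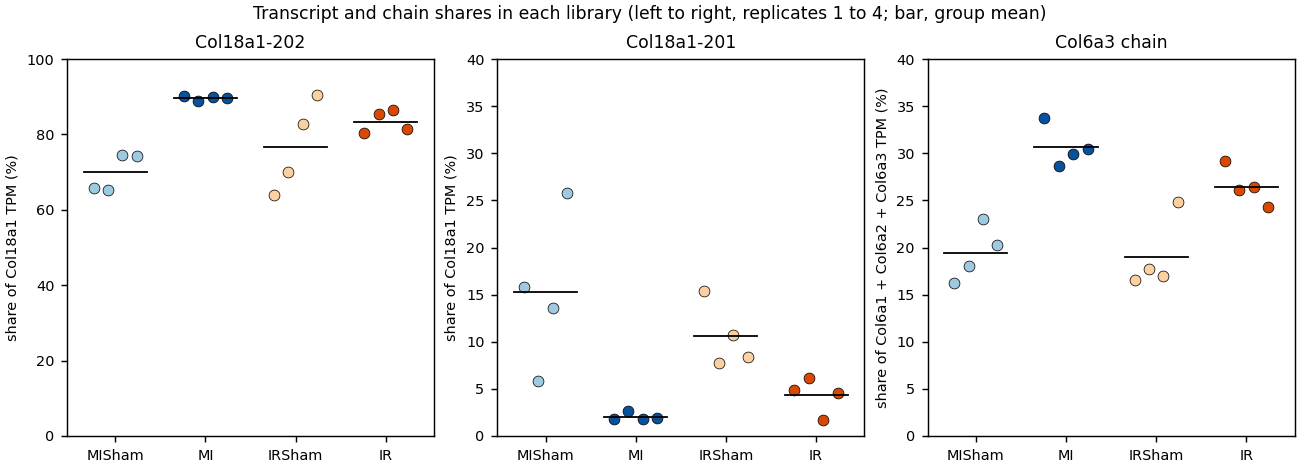
Share in percent of Col18a1 TPM held by Col18a1-202 (left) and Col18a1-201 (middle), and share of collagen VI TPM held by the Col6a3 chain (right), for each library with the group mean as a bar. In MI the 4 points of Col18a1-202 lie between 88.9 and 90.2%, above all MISham points, and IRSham points of Col18a1-202 spread from 63.8 to 90.4% and overlap IR.

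The genes with the most similar centred profiles over the 16 libraries differed from chain to chain. For Col6a1 they were Col6a2, Mxra8 (root mean square difference 0.0995) and Atp13a2 (0.124), and for Col6a3 Lgals1 (0.126) and Scpep1 (0.135). Col8a1 was nearest to Cdca3 (0.218) and Mki67 (0.226), a proliferation marker, and Col8a2 to Thbs4 (0.403), a thrombospondin, and Cilp (0.464), a matrix protein of cartilage and fibroblasts. Col12a1 was nearest to Cthrc1 (0.329) and to Lox (0.348), a collagen crosslinking enzyme, and Col14a1 to Olfml2b (0.152). Col15a1 was nearest to Cpne2 (0.120), and Col16a1 to Fstl1 (0.126) and Loxl1 (0.150). Col18a1 was nearest to Foxc2 (0.232), a transcription factor of vessels, Pf4 (0.241) and Actn1 (0.242). The nearest match of Col8a2 was looser than that of the other 9 genes. Cthrc1, Lox and Cilp also stand in the list of activated fibroblast markers. These likenesses describe the same 16 libraries and carry no test.

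Genes that modify, secrete, process or bind collagens were counted from lists. Beside the counts in this and the following lists, 34.8% of all tested genes were called higher and 30.2% lower in MI. In IR 29.5% were called higher and 28.2% lower. Of 20 genes for chain modification and secretion 15 rose and 2 fell in MI, and 15 and 2 in IR. In this list the median log2 fold change was 1.28 in MI and 0.97 in IR. Colgalt1, which adds galactose to hydroxylysine, rose from 88.9 ± 7.71 CPM to 203 ± 6.68 CPM in MI (1.19 ± 0.06, adjusted p = 1.17e-09) and by 0.82 ± 0.06 in IR. Crtap (1.34 ± 0.08 and 1.16 ± 0.08), Ppib (1.29 ± 0.09 and 1.14 ± 0.09) and P3h3 (1.75 ± 0.12 and 1.39 ± 0.12), parts of prolyl 3-hydroxylation, rose in both. The 2 that fell were Colgalt2 and Mia2, named after their values were seen.

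Of 14 genes for processing and crosslinking outside the cell 13 rose and 1 fell in MI, and 12 and 1 in IR, with median log2 fold changes of 1.66 and 1.49. Bmp1, the C-propeptidase, rose by 1.56 ± 0.13 and 1.06 ± 0.13 in MI and IR, and Loxl1, a lysyl oxidase, by 2.03 ± 0.18 and 1.84 ± 0.17. The cathepsins Ctsl (1.32 ± 0.12 and 1.12 ± 0.12) and Ctsb (1.88 ± 0.18 and 1.95 ± 0.18) also rose. The gene that fell was Adamts3, an N-propeptidase, named after its value was seen.

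Of 12 collagen receptors 10 rose and 1 fell in MI, and 9 and 1 in IR, with medians of 1.04 and 0.68. Mrc2, an endocytic collagen receptor, rose by 2.07 ± 0.15 and 1.88 ± 0.15, Cspg4 (NG2), which binds collagen VI, by 1.16 ± 0.09 and 0.71 ± 0.09, and Itgb1, the β1 integrin chain, by 0.93 ± 0.08 and 0.64 ± 0.08. Antxr2 (CMG2), a receptor that takes up collagen VI, was the 1 that fell, from 191, 241, 194 and 209 CPM in MISham to 86.7, 84.5, 114 and 99.6 CPM in MI (-1.12 ± 0.10, adjusted p = 5.47e-08) and by -0.91 ± 0.10 in IR (adjusted p = 8.78e-07). Antxr2 thus moved against the 3 main collagen VI chains in both injuries.

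Of 9 tested chains of the same collagen classes outside the 10 genes, 3 rose and 1 fell in MI and in IR. The medians were 0.15 and -0.07, near those of all genes, and the share that rose was near that of all genes too. Col7a1 (1.26 ± 0.23 and 1.21 ± 0.23) and Col9a2 (2.07 ± 0.46 and 2.32 ± 0.45) rose in both. The others that rose were Col6a4 in MI, near the floor and with the limit given above, and Col28a1 in IR. Col6a6 was the 1 that fell. Col9a2 was scarce as well, at 0.233 to 0.551 CPM in MISham and 0.322 to 0.704 CPM in IRSham. Its IR replicate 3, at 0.573 CPM, lay within the IRSham range. Of 11 fibrillar chains 9 rose and 0 fell in both, with medians of 2.39 and 2.04, among them Col5a1 (2.39 ± 0.26 and 2.04 ± 0.26), Col5a2 (2.75 ± 0.28 and 2.36 ± 0.27), Col11a1 (3.79 ± 0.48 and 3.51 ± 0.47) and Col27a1 (1.97 ± 0.13 and 1.64 ± 0.13). Of 13 matrix partners of collagens VI, XII and XIV 8 rose and 3 fell in MI, and 9 and 2 in IR, with medians of 0.48 and 1.81. Bgn, a proteoglycan that binds collagen VI, rose by 2.26 ± 0.18 and 2.00 ± 0.18, Tgfbi by 2.92 ± 0.30 and 1.81 ± 0.29, and Fmod by 2.71 ± 0.48 and 4.02 ± 0.48. Tnxb, a tenascin that binds collagen fibrils, fell by 2.18 ± 0.21 and 1.27 ± 0.20 on the log2 scale. The MI and IR values of these lists were not tested against each other as lists.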

How the data were processed

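Poly(A) RNA of 16 short-read mouse heart libraries was analysed, 4 in each group. The 4 long-read samples were not analysed here. The submitters' processing notes list kallisto 0.50.1, the aligner HISAT2 2.2.1, the counter featureCounts 2.0.1, SAMtools 1.7 and the build GRCm39, and strand and annotation release are not given in the sources used here. The authors deposited whole-number counts per gene and, in a separate table, TPM per transcript, of which 2 columns not tied to a sample were not used. Counts were tested with edgeR 4.0.16 (quasi-likelihood, TMM, filterByExpr with a minimum count of 10, 16 libraries in 1 model, R 4.3.3), and DESeq2 1.42.0 was an alternative. Deposited TPM were tested as log2(TPM + 1) with limma 3.58.1, for transcripts with a mean of at least 1 TPM, so a difference understates the change of low transcripts. Transcript shares, in percent of a gene's TPM, were tested with limma for genes of at least 5 TPM, and chain shares with exact permutation tests. Adjusted p-values are Benjamini-Hochberg over each whole table, or over the 4 tests for the chain shares, with a threshold of 0.05. The scripts were tested on simulated data. Transcript names were matched through GENCODE M21 and promoters through RefSeq. The text names all 10 genes, their tested transcripts, up to 4 called genes of each list with the smallest p and the 3 nearest genes of each (not all are printed). The members and lists were chosen with earlier results of these data known. Alternatives were other scalings, filters, pseudocounts and models, a replicate block, and leaving out libraries.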

Additional observations from a re-analysis of the deposited data

Results flagged for a closer look

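The share of collagen VI TPM held by Col6a3 was 24.8% in IRSham replicate 4 and 16.5 to 17.7% in the other 3 IRSham libraries. The gap to the nearest library was 0.862 of the whole range of the group, above Dixon's 95% critical value for 4 samples. Chance flags about 1 in 20 groups, and 56 groups were checked.

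Plod1, a lysyl hydroxylase of collagen chains, had a log2 fold change that was 0.54 ± 0.10 higher in MI than in IR (edgeR, adjusted p = 0.0332). Its levels were 182, 164, 171 and 158 CPM in MISham, 282, 270, 261 and 270 CPM in MI, 201, 223, 201 and 213 CPM in IRSham and 211, 238, 229 and 248 CPM in IR. The change was 0.68 ± 0.07 in MI and 0.15 ± 0.07 in IR (adjusted p = 0.0718), and MISham lay below IRSham by -0.31 ± 0.07 (adjusted p = 0.0109). Leaving out 1 library took the adjusted p from 0.0149 to 0.0933, and 9 of 16 omissions lost the call, while the difference stayed between 0.45 and 0.58. With the replicate block it was 0.53 (adjusted p = 0.0836), past the threshold no longer.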

How the results depend on the processing

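All 10 genes were called higher in MI and in IR under each of 25 alternatives. The number called for a difference between the MI and IR responses was 0 by edgeR, where 0.192% of all tested genes were called. It was 1 with DESeq2, where 1.24% of all genes were called higher and 1.42% lower. By edgeR without IR libraries 1 and 3 together it was 1 (Col18a1, 1.29, adjusted p = 0.0243), where 0.402% and 0.215% were. Without MISham libraries 1 and 3 together it was 3, where 4.46% and 0.723% were, and it ran from 0 to 1 when 1 library was left out. These joint omissions lowered the number of samples. The count between the shams was 6 without MISham libraries 1 and 3, where 5.55% of all genes were called lower, and 0 in each omission of 1 library. For transcripts the count of differences ran from 0 to 1. Share changes ran from 1 to 3 in MI and from 0 to 1 in IR. The Col8a2 share difference ran from -1.16 to 0.078 points in MI and from -0.64 to 2.58 points in IR. Small differences between the responses changed sign: Col16a1 was 0.03 in the reported fit, -0.026 with RLE size factors, -0.025 with DESeq2, -0.15 without IR libraries 1 and 3 and -0.14 to 0.28 with 1 library left out. Col14a1 was -0.020 without IR libraries 1 and 3 and -0.061 to 0.27 with 1 left out. Without MISham libraries 1 and 3 Col6a3 was 0.37 and Col12a1 1.94. With 1 left out they ran from -0.19 to 0.11 and from -0.025 to 1.41. With 1 library left out, Col12a1 between the shams ran from -1.27 to 0.17, and Col14a1-204 in MI from -0.41 to 0.10 on the log2 scale. Col12a1 between the shams was -1.80 without MISham libraries 1 and 3. The cause was not tested. With the replicate block, the counts of the 10 genes called were 10 in MI, 10 in IR, 0 for the difference and 0 between the shams, and 2 share changes in MI were called. Plod1 lost its call for the difference with the block. Same-numbered libraries of MI and MISham, and of IR and IRSham, had r from -0.056 to 0.051 between their deviations, and 4 of 8 correlated best with their own number. Pairs across the injury models were not checked, and the libraries were treated as unpaired. Depth limits Col8a2 most.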
